A study of Mus musculus with 12 samples.

Results

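The 9 enzymes described here oxidise or reduce steroids in mouse liver. They are the Hsd3b enzymes Hsd3b2, Hsd3b3 and Hsd3b5, the hydroxysteroid dehydrogenases Hsd11b1, Hsd17b11 and Hsd17b13, the steroid reductases Srd5a1 and Akr1d1, and the aldo-keto reductase Akr1c6. They were taken by name from the deposited table of 22170 gene names and 152210 transcripts, and had been chosen by their levels across the 4 diet groups. The levels in those groups are therefore given as a description, with no p-value. The table carries 8 of the 9 names. No row is named Hsd3b3, because its transcripts stand under the name Hsd3b2, and 55 transcript rows in all belong to the enzymes. The livers came from male C57BL/6J mice aged 21 weeks, housed singly, which had received their diet for 16 weeks. The ND mice ate a normal diet, the HFD mice a high-fat diet, the CLE mice the high-fat diet with 1.5% (w/w) of an ethanol extract of chrysanthemum leaves, and the LU mice the high-fat diet with 0.003% (w/w) luteolin, a flavonoid. CLE and LU mice thus share the high-fat diet with the HFD mice, and no group received the extract or luteolin on the normal diet. Total RNA was taken from whole liver of 3 mice per group, picked by the study as representative of their group, and each mouse is 1 replicate.

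Hydroxysteroid dehydrogenases move steroids between their hydroxyl and keto forms, which switches hormones between active and weak forms, and reductases saturate the steroid ring. In liver, some enzymes of these kinds clear androgens and glucocorticoids from the blood, and some take part in making bile acids. Several of them differ between the sexes in mouse liver, where the pulsed growth hormone secretion of males keeps a set of genes high through the transcription factor STAT5B. Hsd3b5 is a classic member of that male set. Hsd17b11 and Hsd17b13 are found on lipid droplets.

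The Hsd3b genes lie next to each other on chromosome 3 and are close copies, which bears on how their values can be read. In the mouse genome build GRCm38, with the GENCODE M21 annotation, Hsd3b5 (ENSMUSG00000038092) spans chr3:98618634-98630252, Hsd3b2 (ENSMUSG00000063730) chr3:98709255-98724543 and Hsd3b3 (ENSMUSG00000062410) chr3:98741523-98763127, all on the minus strand. The coding sequences of Hsd3b2 and Hsd3b3 were 95.1% identical over 1119 aligned bases, with an identical run of 228 bases, which is longer than the reads of 100 bases. Hsd3b5 was 81.3% identical to both. Of the windows of 100 bases in the coding sequence, 19.5% for Hsd3b2, 19.8% for Hsd3b3 and 11.1% for Hsd3b5 also occurred without a mismatch in a transcript of another gene. The shared windows of Hsd3b2 and Hsd3b3 were in each other and in Hsd3b6, and those of Hsd3b5 in Hsd3b4 and the gene models Gm10681 and Gm4450. Reads from such windows could have been split among the copies, so the levels of the Hsd3b genes are less certain than those of enzymes that shared no window. Srd5a1 shared 27.5% of its windows with the overlapping gene model Gm17108, so the same caution holds for its level. The other 5 enzymes shared none. The first 90 coding bases of the Hsd3b genes are shown from GENCODE M21, with the bases that differ from Hsd3b3 in capitals, because they show how few positions separate Hsd3b2 from Hsd3b3 and how many more separate Hsd3b5.

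Hsd3b3: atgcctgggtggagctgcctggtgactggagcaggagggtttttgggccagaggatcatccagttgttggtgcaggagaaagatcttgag
Hsd3b2: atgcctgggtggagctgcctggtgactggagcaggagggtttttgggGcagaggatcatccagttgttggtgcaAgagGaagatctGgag
Hsd3b5: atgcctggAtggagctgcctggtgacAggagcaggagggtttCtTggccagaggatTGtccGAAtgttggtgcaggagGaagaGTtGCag

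Hsd3b2 differed from Hsd3b3 at 4 of these 90 positions and Hsd3b5 at 14. Sequence upstream of the genes is shown for Hsd3b3 and Hsd3b5, whose levels went opposite ways on the high-fat diet. The windows are the 250 bases before a RefSeq start on the minus strand of GRCm38.p6, at chr3:98763129-98763378 for Hsd3b3 and chr3:98645535-98645784 for Hsd3b5. The start used for Hsd3b5, 98645534, lies upstream of the GENCODE span given above. It is inside a newly assembled transcript of the deposited data, at 98618357 to 98646304. RefSeq also gives Hsd3b3 a start at 98762410, whose window was 99.6% identical to the one shown. Capitals in Hsd3b5 mark bases that differ from the aligned Hsd3b3 window or lie outside the alignment.

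Hsd3b3: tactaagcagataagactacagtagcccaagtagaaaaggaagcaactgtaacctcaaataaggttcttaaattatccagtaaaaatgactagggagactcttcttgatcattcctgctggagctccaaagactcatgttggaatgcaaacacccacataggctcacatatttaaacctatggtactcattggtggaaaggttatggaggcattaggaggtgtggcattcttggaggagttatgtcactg
Hsd3b5: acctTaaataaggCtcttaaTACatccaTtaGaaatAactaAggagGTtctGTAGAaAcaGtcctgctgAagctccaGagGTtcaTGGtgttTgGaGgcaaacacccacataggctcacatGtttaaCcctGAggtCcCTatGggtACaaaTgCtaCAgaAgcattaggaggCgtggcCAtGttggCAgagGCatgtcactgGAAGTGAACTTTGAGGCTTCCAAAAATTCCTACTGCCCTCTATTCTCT

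Over 199 aligned bases the windows of Hsd3b3 and Hsd3b5 were 75.9% identical, so the copies are alike in these windows as well as in the coding sequence. The window of Hsd3b2 aligned to that of Hsd3b3 over 36 bases only. The STAT5 motif TTCNNNGAA, searched on both strands, was in none of the windows of the 9 enzymes and in 7.02% of the 32851 promoter windows of the same length. The motif AGGTCA, a core element bound by many nuclear receptors, was in 14.0% of those windows on either strand. It occurred in Akr1d1 at a pair of positions and in Hsd17b13 at 1. The TATA box letters TATAAA on the gene's strand were in the window of Akr1c6 alone among the enzymes and in 7.59% of all windows. The window of Akr1d1 is shown with its AGGTCA matches in capitals (read on the other strand as TGACCT), because Akr1d1 was the enzyme whose CLE and LU livers were all below every HFD and ND liver. It lies on the plus strand at chr6:37529923-37530172.

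Akr1d1: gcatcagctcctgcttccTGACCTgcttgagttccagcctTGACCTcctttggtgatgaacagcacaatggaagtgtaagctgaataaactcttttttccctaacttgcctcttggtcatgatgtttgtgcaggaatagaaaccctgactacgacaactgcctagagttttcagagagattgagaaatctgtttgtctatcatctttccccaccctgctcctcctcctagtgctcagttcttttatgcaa

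The matches lay 232 to 227 and 210 to 205 bases before the gene start. No protein binding was measured here.

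All levels are in FPKM, a count of sequenced fragments corrected for transcript length and library size, summed over the transcript rows of a gene in each liver. Since FPKM is per length, levels may be set side by side between genes. Differences between groups are on the log2(FPKM + 1) scale with their standard error from a limma fit to the 11566 genes whose mean level reached 0.5 FPKM, and this scale understates changes of low values. Where Hsd3b2 and Hsd3b3 are given apart, the values come from a second such fit, to genes summed by reference transcript. A difference was called when its adjusted p (Benjamini-Hochberg) was under 0.05. In whole liver, fewer cells of a type and less RNA per cell cannot be told apart.

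Facts of the whole set of livers bear on the comparisons. The FPKM summed over all named genes ranged from 1698820 to 5575490 among the livers, so the deposited values do not share a common total. Scaling factors by median of ratios, which follow the typical gene, ranged from 0.894 to 1.06. They were 0.894 to 0.964 in ND and 1.01 to 1.05 in HFD. CLE was at 1.02 to 1.05 and LU at 0.960 to 1.06. The median gene was 0.11 higher in HFD than in ND on the log2 scale, 0.16 higher in CLE than in ND and 0.12 higher in LU than in ND, and its shift was 0.02 for CLE against HFD and -0.02 for LU against HFD. Hepatocyte markers were well above 0 in all groups, except that albumin was listed at 0 in 11 of the 12 livers and at 19853 FPKM in LU mouse 3. The summed FPKM of 8 detected Kupffer cell and macrophage markers was 104 to 116 in ND and 152 to 228 in HFD. That of 9 pericentral hepatocyte markers was 6684 to 7540 in ND, 8947 to 10704 in HFD, 9071 to 9834 in CLE and 8863 to 11207 in LU, most of it from Cyp2e1. Of these markers, 8 were higher in every HFD liver than in every ND liver, against 29.1% of all tested genes. The sum of 9 periportal markers overlapped, at 3743 to 5533 in ND and 3714 to 4213 in HFD. That of 8 stellate cell markers was 75.0 to 105 in ND and 134 to 168 in HFD, most of it from Dcn. The summed FPKM of 6 adipocyte markers was 48.9 to 89.4 in ND, 163 to 205 in HFD, 170 to 353 in CLE and 268 to 396 in LU, nearly all of it from Cfd, Cidec and Fabp4. The defining adipocyte gene Lep was listed at 0 in every ND, HFD and CLE liver and at 0.139 to 0.187 FPKM in LU, and no other marker found of these lists was at 0 throughout a group. A relation between gene GC content and deviation from the mean of all livers was negative in ND and HFD livers (Spearman rho -0.37 to -0.14 across 11413 genes) and positive in CLE and LU livers (0.16 to 0.48). Dbp, an output gene of the circadian clock, was at 2.06 to 21.4 FPKM in ND, 6.94 to 29.5 in HFD, 26.0 to 43.9 in CLE and 26.3 to 50.3 in LU. The part of cell makeup and of the clock in the results was not tested.

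Hsd3b5 had the widest range of the 9 enzymes. This enzyme is a keto-reductase of the Hsd3b family that is found in male mouse liver. It was at 45.0, 97.9 and 39.1 FPKM in the ND livers, at 0.600, 0.169 and 1.00 FPKM in the HFD livers, at 15.8, 8.63 and 44.0 FPKM in the CLE livers and at 49.4, 55.1 and 3.03 FPKM in the LU livers of mice 2, 3 and 8. All 3 HFD livers were below every other liver, while the ranges of ND, CLE and LU overlapped one another. The means were 60.7 ± 32.4 FPKM in ND, 0.591 ± 0.418 in HFD, 22.8 ± 18.7 in CLE and 35.8 ± 28.5 in LU (SD, n = 3 each), so the ND mean was 103.0 times the HFD mean, the CLE mean 38.6 times and the LU mean 60.6 times. On the log2(FPKM + 1) scale the difference was -5.19 ± 0.83 (SE) for HFD against ND, 3.64 ± 0.83 for CLE against HFD and 3.86 ± 0.83 for LU against HFD. LU mouse 8 stood apart at a level nearer to the HFD livers, and without it the LU mean was 52.2 FPKM (n = 2) and the difference from HFD 5.10. The level in CLE was -1.55 ± 0.83 and in LU -1.33 ± 0.83 from that in ND, and without LU mouse 8 the latter was -0.09. A newly assembled transcript held 81.9% of the Hsd3b5 sum over all livers. With exact reference transcripts alone the difference was -2.14 for HFD against ND, 2.24 for CLE against HFD and 2.90 for LU against HFD, and it turned positive against ND, at 0.11 for CLE and 0.77 for LU.

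The other Hsd3b genes were higher in HFD than in ND. These enzymes oxidise the hydroxyl group of pregnenolone-type steroids and shift a double bond, a step on the way to all steroid hormones. The rows under the name Hsd3b2, which hold Hsd3b2 and Hsd3b3 together, summed to 72.5, 107 and 94.1 FPKM in ND, 181, 137 and 146 in HFD, 97.4, 71.7 and 123 in CLE and 158, 130.2 and 103 in LU. Every HFD liver was above every ND and every CLE liver, and the LU livers overlapped all other groups. The difference was 0.76 ± 0.21 (SE) for HFD against ND, -0.68 ± 0.21 for CLE against HFD and -0.25 ± 0.21 for LU against HFD. The first of these was 0.60 with median-of-ratios scaling.

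When each row was given to the gene of its reference transcript, most of the sum was Hsd3b3. Hsd3b3 was at 64.6, 95.7 and 82.8 FPKM in ND, 160.2, 119 and 125 in HFD, 81.0, 56.5 and 103 in CLE and 135, 114 and 88.8 in LU. Its HFD livers were again above every ND and CLE liver. The difference was 0.73 ± 0.22 (SE) for HFD against ND, -0.77 ± 0.22 for CLE against HFD and -0.26 ± 0.22 for LU against HFD. Hsd3b2 itself was at 7.86, 11.5 and 11.2 FPKM in ND, 21.1, 17.5 and 20.7 in HFD, 16.4, 15.1 and 20.4 in CLE and 22.7, 15.9 and 14.4 in LU. Here the CLE and LU livers overlapped the HFD livers, and all 9 livers of the high-fat diets were above all 3 ND livers. The difference of Hsd3b2 was 0.90 ± 0.18 for HFD against ND, 0.72 ± 0.18 for CLE against ND and 0.73 ± 0.18 for LU against ND, and -0.19 ± 0.18 for CLE against HFD. A newly assembled transcript that spans both genes was counted here to Hsd3b2 and held 34.9% of its sum.

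The transcript rows that made up Hsd3b3 differed among the diet groups. The GC relation given above also changed sign between the ND and HFD livers and the CLE and LU livers. Its part in these rows was not tested. The row of ENSMUST00000107018, which held 63.2% of Hsd3b3 over all livers, was at 47.8, 75.2 and 54.9 FPKM in ND, 110.5, 89.8 and 97.2 in HFD, 33.9, 16.2 and 25.6 in CLE and 93.7, 65.8 and 63.8 in LU. The row of ENSMUST00000090743 was under 0.001 FPKM in ND mice 2 and 3 and in all HFD livers and at 1.72 FPKM in ND mouse 4, but at 28.2, 27.6 and 52.5 FPKM in CLE and 16.7, 26.4 and 8.5 FPKM in LU. The CLE livers were thus lowest for the main row and highest for the row that was nearly absent in ND and HFD. A row of ENSMUST00000125483, annotated as a transcript with no coding sequence, was at 7.63 to 12.6 FPKM in ND and 16.5 to 35.5 FPKM in HFD, under 0.01 FPKM in every CLE liver and at 1.56 to 14.4 FPKM in LU. A newly assembled row that matches the same transcript went another way, at 8.66, 3.32 and 5.99 FPKM in CLE and 0.633, 0.749 and 2.29 FPKM in HFD. The rows share most of their bases, so the deposited split among them is an estimate of the quantification program. ENSMUST00000090743 starts at position 98753465 of the minus strand in the deposited table, inside the span of ENSMUST00000107018, which starts at 98763070.

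**Figure D1:**
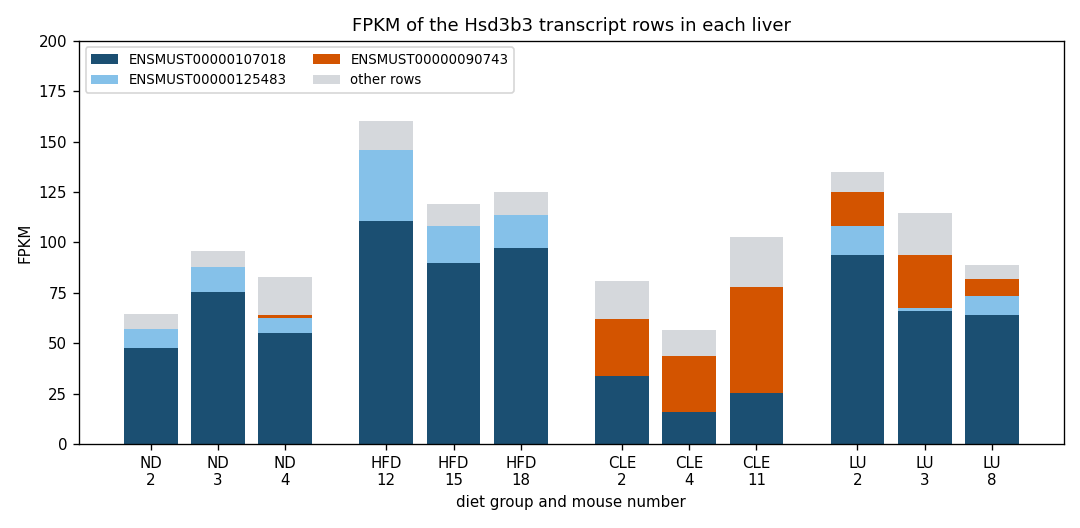
FPKM of the Hsd3b3 transcript rows stacked for each liver, by diet group and mouse number. The row of ENSMUST00000090743 is at 28.2, 27.6 and 52.5 FPKM in the CLE livers and 8.5 to 26.4 FPKM in the LU livers, and at most 1.72 FPKM in ND and HFD.

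The groups overlapped for Hsd11b1 in all pairs but LU against ND. This enzyme regenerates active glucocorticoid, corticosterone in mice, from its inactive keto form inside liver cells. The gene (ENSMUSG00000016194) spans chr1:193221634-193264075 on the minus strand. It was at 414, 363 and 411 FPKM in ND, 463, 421 and 331 in HFD, 268, 432 and 427 in CLE and 348, 348 and 331 in LU. The LU livers were all below the ND livers. The difference was 0.02 ± 0.18 (SE) for HFD against ND, -0.13 ± 0.18 for CLE against HFD and -0.23 ± 0.18 for LU against HFD. The first of these was -0.14 with median-of-ratios scaling.

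The lipid droplet enzymes Hsd17b13 and Hsd17b11 lie side by side on chromosome 5, at chr5:103955440-103977410 and chr5:103989762-104021919 on the minus strand, and differed in pattern. Hsd17b13, a retinol and steroid dehydrogenase of the droplet surface, was at 359, 297 and 343 FPKM in ND, 491, 421 and 402 in HFD, 343, 331 and 304 in CLE and 263, 279 and 428 in LU. Every HFD liver was above every ND and CLE liver, and LU mouse 8 was within the range of HFD while the other LU livers were below all ND livers. The difference was 0.39 ± 0.17 (SE) for HFD against ND, -0.42 ± 0.17 for CLE against HFD and -0.47 ± 0.17 for LU against HFD. With median-of-ratios scaling the first of these was 0.23. Hsd17b11 was at 327, 214 and 299 FPKM in ND, 387, 329 and 293 in HFD, 389, 424 and 363 in CLE and 337, 339 and 409.8 in LU. It was highest in CLE on average, where all livers were above all ND livers, and so were the LU livers. The difference was 0.28 ± 0.16 for HFD against ND, 0.23 ± 0.16 for CLE against HFD, 0.51 ± 0.16 for CLE against ND and 0.39 ± 0.16 for LU against ND. Those of HFD, CLE and LU against ND were 0.12, 0.33 and 0.26 with median-of-ratios scaling. The coding sequences of the pair were 69.0% identical.

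The steroid reductases Srd5a1 and Akr1d1 went opposite ways. Srd5a1 saturates the ring of testosterone to give the stronger androgen dihydrotestosterone, and also acts on glucocorticoids. The gene (ENSMUSG00000021594) spans chr13:69573449-69611442 on the minus strand. It was at 54.1, 51.8 and 66.0 FPKM in ND, 42.4, 34.8 and 40.2 in HFD, 59.6, 38.6 and 68.9 in CLE and 52.7, 53.3 and 53.6 in LU. The HFD livers were below all ND and LU livers, and CLE mouse 4 was within the range of HFD. The difference was -0.54 ± 0.18 (SE) for HFD against ND, 0.46 ± 0.18 for CLE against HFD and 0.44 ± 0.18 for LU against HFD. The first of these was -0.69 with median-of-ratios scaling.

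Akr1d1 reduces the same ring bond with the opposite geometry, in bile acid synthesis and in the breakdown of steroid hormones. The gene (ENSMUSG00000038641) spans chr6:37530173-37568815 on the plus strand. It was at 55.0, 77.9 and 74.7 FPKM in ND, 95.1, 109.6 and 104 in HFD, 48.7, 36.1 and 50.9 in CLE and 53.2, 34.1 and 45.4 in LU. Its HFD livers were above all others, and its CLE and LU livers were below all ND livers while overlapping each other. The means were 69.2 ± 12.4 FPKM in ND, 103 ± 7.32 in HFD, 45.2 ± 7.99 in CLE and 44.2 ± 9.60 in LU (SD, n = 3 each). The difference was 0.58 ± 0.18 (SE) for HFD against ND, -1.18 ± 0.18 for CLE against HFD, -1.22 ± 0.18 for LU against HFD, -0.60 ± 0.18 for CLE against ND and -0.64 ± 0.18 for LU against ND. Its GC content of 40.9% was the lowest of the enzymes, against a median of 50.3% over tested genes, and with the GC trend of each liver removed the difference was -1.01 for CLE against HFD and -1.04 for LU against HFD. The difference with median-of-ratios scaling was 0.42 for HFD against ND and -0.77 for CLE and for LU against ND.

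Akr1c6, an aldo-keto reductase that reduces the keto group of sex steroids and is abundant in liver, had the highest FPKM of the 9. The gene (ENSMUSG00000021210) spans chr13:4434306-4457877 on the plus strand. It was at 673, 707 and 577 FPKM in ND, 1022, 833 and 829 in HFD, 655, 512 and 741 in CLE and 881, 717 and 589.5 in LU. Every HFD liver was above every ND and CLE liver, and LU mouse 2 was within the range of HFD. The difference was 0.45 ± 0.17 (SE) for HFD against ND, -0.50 ± 0.17 for CLE against HFD and -0.31 ± 0.17 for LU against HFD. Its GC content was 41.8%, and with the GC trend removed these were 0.34, -0.34 and -0.14. The first was 0.29 with median-of-ratios scaling.

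**Figure D2:**
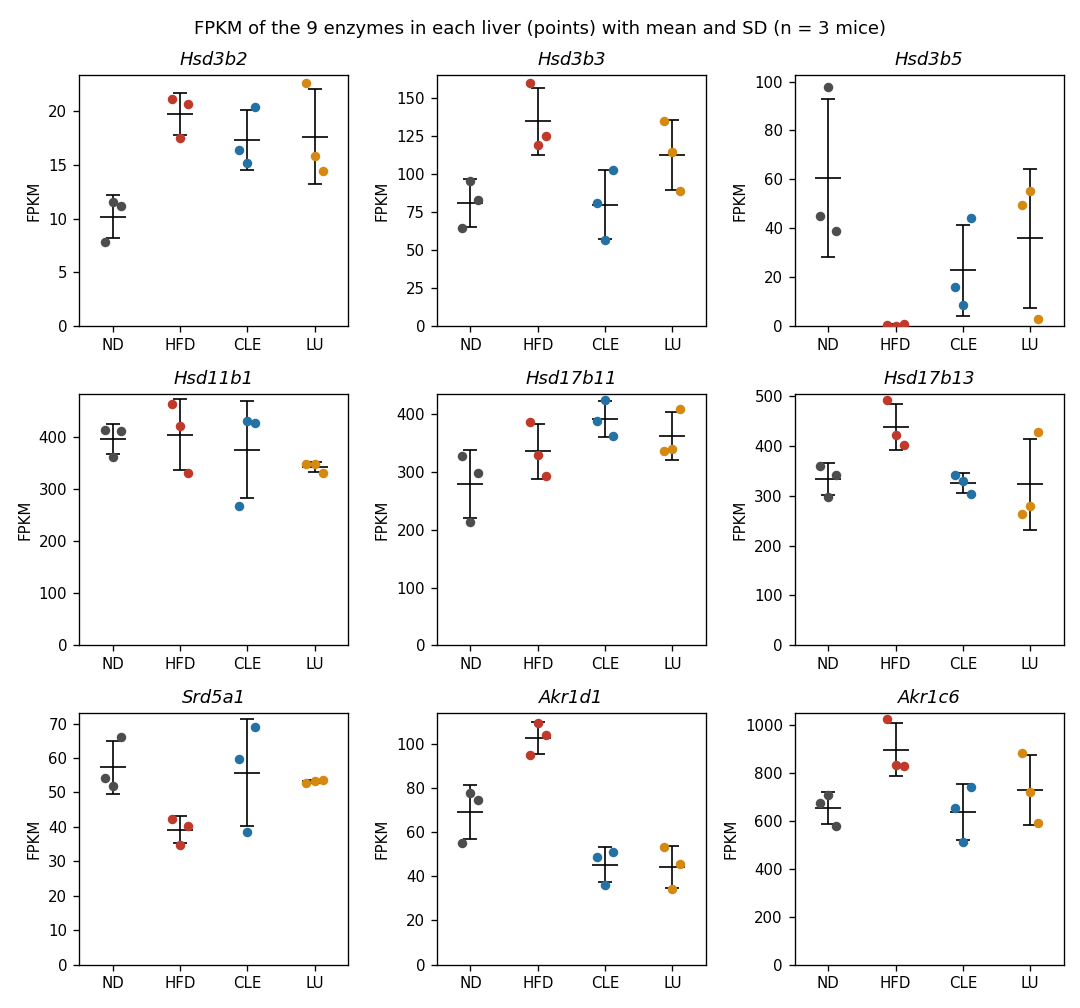
FPKM (linear axis from 0) of each enzyme in the 12 livers, by diet group; points are mice, the horizontal mark is the mean and the bars the SD (n = 3). Hsd3b5 is near 0 in all HFD livers, Akr1d1 is highest in HFD and lowest in CLE and LU, and Hsd11b1 overlaps between most groups. Hsd3b2 and Hsd3b3 are separated here by reference transcript.

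**Figure D3:**
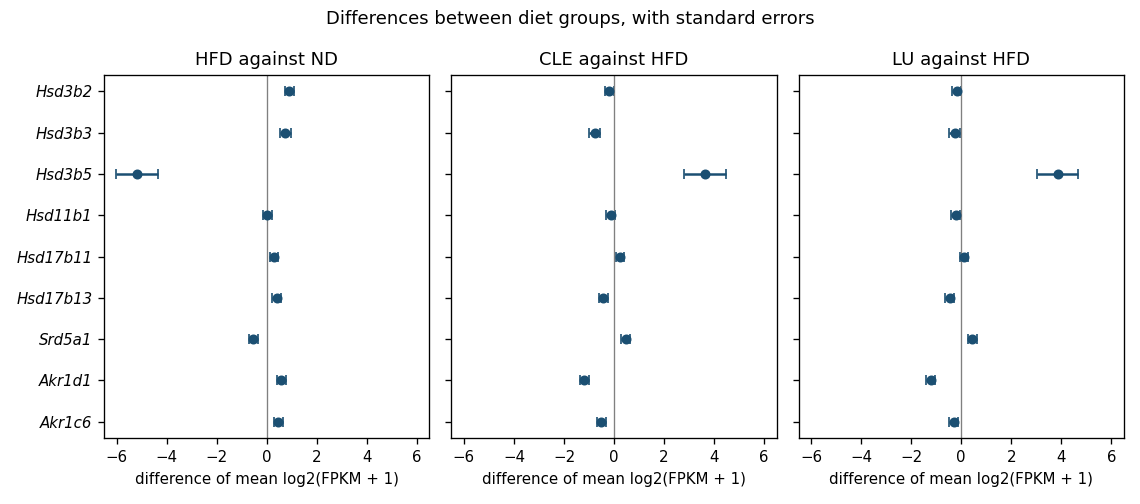
Difference of mean log2(FPKM + 1) between groups for each enzyme (points) with its standard error (bars), in a panel for each comparison that includes the HFD group. Hsd3b5 lies at -5.19, 3.64 and 3.86, and the other enzymes lie within 1.22 of 0. Hsd3b2 and Hsd3b3 are separated by reference transcript and come from the fit to genes summed that way.

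Counted over the 8 names, the threshold was passed upward by 1 and downward by 1 in each comparison with the HFD group. For HFD against ND these were the Hsd3b2 name and Hsd3b5, where 9.99% of all tested genes were called higher and 2.11% lower. For CLE against HFD they were Hsd3b5 and Akr1d1, where 2.74% of all genes were called higher and 3.29% lower. For LU against HFD they were again Hsd3b5 and Akr1d1, where 0.303% were called higher and 0.726% lower. In HFD against ND, 4 names were higher in every mouse and 2 lower in every mouse, against 29.1% and 7.44% of all genes. In CLE against HFD, 1 was higher and 4 were lower in every mouse, against 16.3% and 15% of all genes. In LU against HFD, 2 were higher and 1 lower in every mouse, against 13.1% and 16.9% of all genes. Against ND, 2 names were called in CLE (Hsd17b11 and Akr1d1), where 27% of genes were called, and 1 in LU (Akr1d1), where 14.9% were called. None was called between CLE and LU, where 0.00865% of genes were called by limma. Because the enzymes were chosen with these comparisons known, nothing is read from the counts. The comparisons with HFD use the same 3 HFD livers, so their values are not independent of each other.

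Over the 12 livers, which also share their diet groups, levels of some enzymes ran together on the log2 scale. The Pearson correlation was 0.89 between the Hsd3b2 name and Akr1c6, 0.73 between Hsd3b5 and Srd5a1, and -0.87 between Hsd3b5 and Hsd17b13. Of all tested genes, those most like Hsd3b5 over the 12 livers were Slco1a1 (r = 0.96), an organic anion transporter, Cyp7b1 (0.96), the oxysterol hydroxylase of bile acid and steroid metabolism, and the major urinary protein gene Mup21 (0.95). Most like Akr1d1 were Pde3b (0.96), a phosphodiesterase that acts in insulin signalling, P2ry4 (0.96) and Gm4788 (0.95). Hsd3b2 and Hsd3b3 were taken apart here by reference transcript. Most like Hsd3b2 itself were Rgn (0.97), Car3 (0.94) and Bphl (0.94). Most like Hsd3b3 were Gna14 (0.93), Arhgap26 (0.91) and Tmem14a (0.90). For Akr1c6 they were Rmdn2 (0.91), Mbl2 (0.89) and Nxpe2 (0.89), and for Hsd17b13 Spink3 (0.92), Supv3l1 (0.92) and Ubxn8 (0.91). For Hsd17b11 they were Pet100 (0.92), Phb (0.91) and Sqstm1 (0.89), for Srd5a1 Arf4 (0.86), Pxk (0.86) and Fh1 (0.85), and for Hsd11b1 Uqcrb (0.89), Gm10658 (0.84) and Cox5b (0.84). These genes were picked from all tested genes for the highest r over only 12 livers. A high r is thus built into the choice, and none was tested.

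Hsd3b5 is a male-biased gene, so lists of other sex-biased liver genes were read beside it. Of 15 tested male-biased genes, 10 fell and 0 rose in HFD against ND by limma (12 at an unadjusted p under 0.05), with a median difference of -1.30 against 0.11 over all genes. Of all tested genes, 2.11% fell and 9.99% rose. Moxd1, Mup20 and Serpina1e were the least firm of the 10 calls, lost in 16 of 21, 10 of 23 and 6 of 23 other settings. Moxd1 was at most 0.366 FPKM outside ND mice 2 and 3. It thus reached the minimum mean of 0.5 FPKM only through ND livers, so it had to differ and its call is no support. Slco1a1 fell from 159, 172 and 150.3 FPKM in ND to 18.4, 11.4 and 17.9 in HFD (difference -3.28 ± 0.35, adjusted p = 0.000108, limma). Egfr, the growth factor receptor, fell by 2.58 on the log2 scale (adjusted p = 0.000391, limma), and Serpina1e, a protease inhibitor, by 2.52 (adjusted p = 0.0237). Cyp4a12b and Cyp7b1 fell by 2.09 and 1.96 (adjusted p = 4.79e-05 and 0.00494). In CLE against HFD, 5 of the 15 rose and 0 fell, with a median of 1.10, and in LU against HFD 3 rose and 0 fell, with a median of 0.79. Of all tested genes, 2.74% rose in the former and 0.303% in the latter. Serpina1e rose by 2.76 (adjusted p = 0.0354, limma), Cyp4a12b by 2.03 (adjusted p = 0.000709) and Slco1a1 by 1.90 (adjusted p = 0.0187) in CLE against HFD. The Serpina1e call was lost without any 1 of the HFD mice, CLE mouse 4 or CLE mouse 11, and that of Slco1a1 without HFD mouse 12 or 15. In LU against HFD the genes were Slco1a1 (1.97, adjusted p = 0.0187, limma), Cyp4a12b (1.85, adjusted p = 0.00137) and Mup20 (1.44, adjusted p = 0.0247). Those of Slco1a1 and Mup20 were lost without HFD mouse 15, HFD mouse 18, LU mouse 2 or LU mouse 3. In LU mouse 8, where Hsd3b5 was low, Slco1a1 was at 35.4 FPKM against 81.1 and 90.4 in the other LU livers, Cyp7b1 at 32.5 against 96.9 and 118, and Serpina1e at 132 against 989 and 1091. These genes were picked after their values were seen. Of the 15 male-biased genes, 10 were lowest and 3 highest in mouse 8 among the LU livers, Mup20 and Cyp4a12a being among the latter.

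Female-biased genes were read in the same way. Of 18 listed, 17 were found and 7 were above the minimum level. In HFD against ND, 3 passed upward and 1 downward, where 9.99% of all tested genes rose and 2.11% fell. Cyp2b9, a female-biased cytochrome, was at 0.105, 0.415 and 1.14 FPKM in ND, 71.0, 113 and 61.2 in HFD, 1.54, 8.68 and 1.8 in CLE and 1.8, 1.27 and 12.7 in LU. The LU liver with the most Cyp2b9, mouse 8, was also the one with the least Hsd3b5. The difference was 5.74 ± 0.62 for HFD against ND (adjusted p = 0.00012, limma), -4.29 for CLE against HFD (adjusted p = 0.00629) and -4.17 for LU against HFD (adjusted p = 0.0095, lost without LU mouse 3). Cyp2a4 and Hao2 reached the minimum mean of 0.5 FPKM only through the HFD livers (0.427 and 0.151 FPKM without them), so they had to differ and their calls are no support. Cyp2a4 was at 4.18, 5.66 and 4.00 FPKM in HFD and at most 1.13 FPKM elsewhere, and Hao2 at 1.77, 2.44 and 1.58 FPKM in HFD and at most 0.417 FPKM elsewhere. The gene that fell was Cyp17a1, the hydroxylase and lyase that makes androgen precursors. It was at 42.1, 42.9 and 34.5 FPKM in ND and 2.48 to 5.75 FPKM in the 9 other livers, with a difference of -2.81 ± 0.19 for HFD against ND (adjusted p = 5.9e-06, limma).

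**Figure D4:**
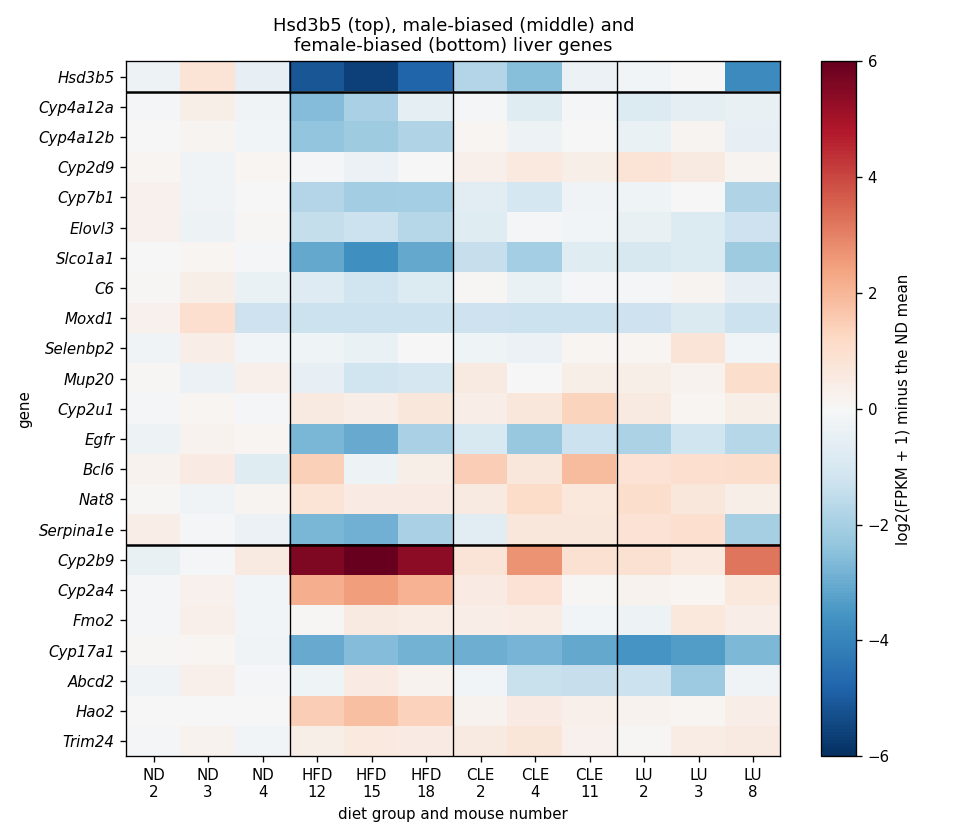
Each cell is log2(FPKM + 1) of a gene in a liver minus the mean of the ND livers, with columns for the 12 livers by diet and mouse number, and rows for Hsd3b5, 15 male-biased genes and 7 female-biased genes. HFD livers are lowest for Hsd3b5 and Slco1a1 and highest for Cyp2b9, and LU mouse 8 is closer to HFD for these genes and for Cyp7b1 than the other LU livers.

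Relatives of the 9 enzymes were tested across all genes as a set of other hydroxysteroid dehydrogenases, steroid reductases and aldo-keto reductases. Of 39 listed genes, 34 were in the table and 23 were above the minimum level. In HFD against ND, 6 rose and 1 fell (12 at an unadjusted p under 0.05), with a median of 0.24 against 0.11 over all genes. Of all tested genes, 9.99% rose and 2.11% fell. Hsd17b6, which oxidises androgens back to their keto forms and retinol, rose from 52.5, 36.3 and 77.3 FPKM in ND to 153, 141 and 113 in HFD (1.33 ± 0.24, adjusted p = 0.00422, limma). Akr1c20, a close relative of Akr1c6, rose from 67.9, 78.4 and 63.9 FPKM to 131, 127 and 115 (0.82 ± 0.13, adjusted p = 0.00223, limma). Srd5a3, which makes dolichol for protein glycosylation, rose by 0.72 (adjusted p = 0.00213) and Akr1a1, which reduces aldehydes, by 0.67 (adjusted p = 0.00127). Akr1b3, the aldose reductase, and Hsd3b7, which acts in bile acid synthesis, rose by 0.42 and 0.34 (adjusted p = 0.0357 and 0.0377, limma), calls that were lost in 11 and 13 of 23 other settings, both scalings and the GC correction included. Hsd17b7, which acts in cholesterol synthesis, fell from 22.7, 20.3 and 22.3 FPKM to 9.47, 12.1 and 8.98 (-1.04 ± 0.14, adjusted p = 0.000624, limma).

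The relatives with a mean of at least 5 FPKM that passed in no comparison with the HFD group were Hsd17b2, Hsd17b4, Hsd17b10, Hsd17b12, Hsdl2, Akr1c12, Akr1c13, Akr1c19, Akr1e1 and Akr7a5. Their differences ran from -0.45 (Hsdl2) to 0.39 (Akr1c19) in HFD against ND, from -0.38 (Akr1c13) to 0.39 (Hsd17b10) in CLE against HFD, and from -0.57 (Akr1c19) to 0.40 (Hsd17b10) in LU against HFD.

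Of all tested genes, 2.74% rose and 3.29% fell in CLE against HFD. Among the relatives, 0 rose and 3 fell there by limma (7 at an unadjusted p under 0.05), with a median of -0.03 against 0.02 over all genes. These were Akr1c14, which reduces dihydrotestosterone and bile acid precursors (-0.94 ± 0.20, adjusted p = 0.0309), Akr1c20 (-0.63 ± 0.13, adjusted p = 0.0308) and Srd5a2, a relative of Srd5a1 at 0.748 to 2.02 FPKM (-0.50 ± 0.13, adjusted p = 0.0448). Akr1c14 was at 137, 146 and 137 FPKM in HFD and 72.6, 61.6 and 84.3 in CLE. Leaving out any 1 HFD mouse or CLE mouse 4 left 0 calls among the relatives, leaving out CLE mouse 2 gave 6, and removing the GC trend left 0. In LU against HFD, where 0.303% of all tested genes rose and 0.726% fell, 1 relative fell (9 at an unadjusted p under 0.05). It was Akr1c20, at 83.0, 62.7 and 75.5 FPKM in LU (-0.76 ± 0.13, adjusted p = 0.0204, limma). Leaving out any 1 HFD mouse or LU mouse 3, or removing the GC trend, left 0 calls. Against ND, 7 relatives rose and 1 fell in CLE, and 8 rose and 1 fell in LU, where 27% and 14.9% of all tested genes were called, and leaving out CLE mouse 11 gave 5 calls in the former while leaving out ND mouse 4 or LU mouse 2 gave 4 in the latter. None was called between CLE and LU by limma (2 at an unadjusted p under 0.05).

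**Figure D5:**
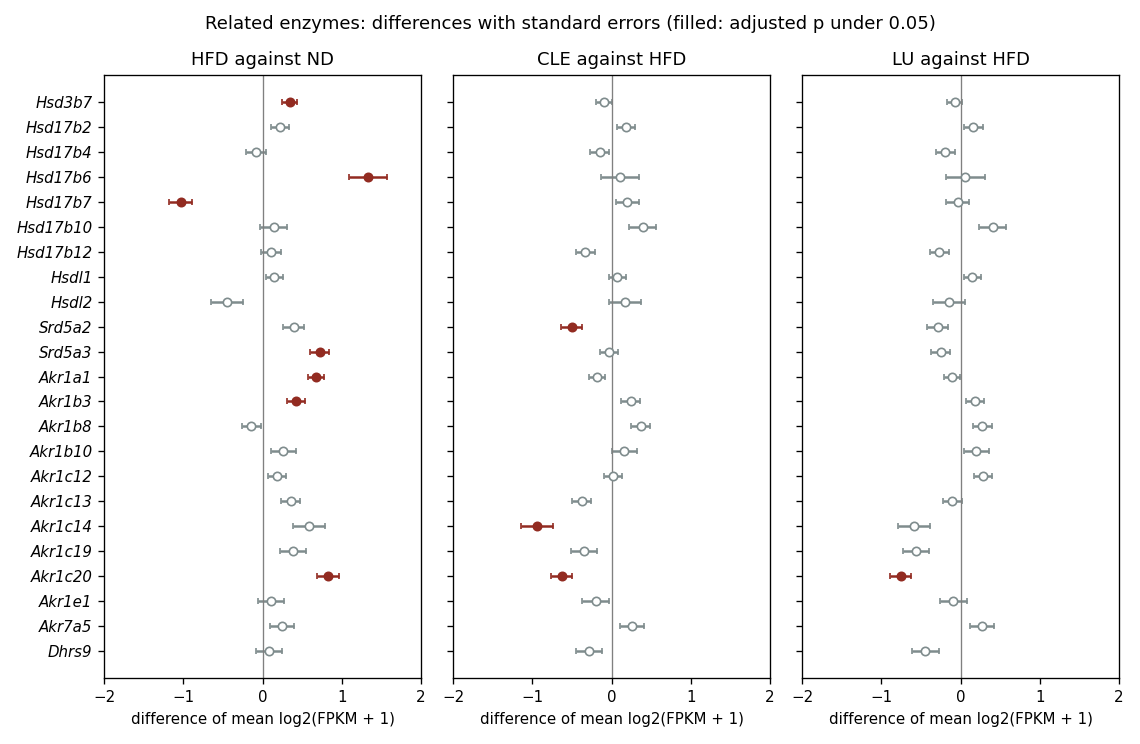
Difference of mean log2(FPKM + 1) with its standard error for the 23 tested relatives; filled points had an adjusted p under 0.05 by limma. In HFD against ND, Hsd17b6 lies farthest to the right at 1.33 and Hsd17b7 farthest to the left at -1.04. In CLE against HFD the filled points are Srd5a2, Akr1c14 and Akr1c20, and in LU against HFD Akr1c20.

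Other lists of the steroid and bile acid pathways were counted in the same way. Of 12 tested bile acid synthesis enzymes, 2 rose and 2 fell in HFD against ND, where 9.99% of all genes rose and 2.11% fell. Cyp8b1, which sets the share of cholic acid, fell by 0.99 and Cyp7b1 by 1.96, while Acox2 and Cyp46a1 rose by 0.45 and 0.78 (adjusted p = 0.00297, 0.00494, 0.0166 and 0.034, limma). The calls of Acox2 and Cyp46a1 were lost in 5 of 23 and 10 of 22 other settings. In LU against HFD, 1 fell, Cyp7a1, the rate-limiting enzyme of bile acid synthesis (-1.35 ± 0.27, adjusted p = 0.0395, limma), a call lost in 8 of 23 other settings, among them the GC correction and leaving out HFD mouse 15 or 18 or LU mouse 2 or 3, and 0 passed in CLE against HFD (6 at an unadjusted p under 0.05). Of 6 tested genes of the steroid hormone cytochromes, Cyp17a1 fell and Cyb5a, its helper cytochrome, rose by 0.68 (adjusted p = 0.0297, limma, lost in 8 of 23 other settings) in HFD against ND, and 0 passed in the other comparisons with HFD, also at an unadjusted p under 0.05. Among steroid receptors, Nr1i3, the constitutive androstane receptor, rose by 0.93 in HFD against ND (adjusted p = 0.0326, limma, lost in 10 of 23 other settings). Of 15 glucocorticoid receptor targets, read beside Hsd11b1, 1 rose and 2 fell in HFD against ND, namely Lcn2 (3.22), Igfbp1 (-2.23) and Pck1 (-0.67, lost in 5 of 23 other settings), and 0 passed against HFD in CLE or LU (3 and 4 at an unadjusted p under 0.05). Of 12 lipid droplet proteins, read beside Hsd17b13 and Hsd17b11, Cidea (4.15, adjusted p = 6.11e-05, limma) and Fitm1 (0.87, adjusted p = 0.0101) rose and Pnpla3 (-0.61, adjusted p = 0.00719) fell in HFD against ND, and 0 passed against HFD in CLE or LU (2 and 1 at an unadjusted p under 0.05).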

How the data were processed

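Total RNA of 12 livers was sequenced from both ends, 100 bases each. Alignment was by TopHat2 2.0.12 and Bowtie2 2.2.3. The authors assembled and quantified transcripts with Cufflinks 2.2.1, per the labels, and deposited FPKM per transcript, and whether the normalization factors named in the methods are in these values is not stated. The genome build is not given in the sources used here, and 87.5% of known transcripts had the coordinates of GENCODE M21 (GRCm38). The table states 30 samples for its assembly. Mapped read numbers are not used here, so the depth behind a value is unknown. Rows with no gene name (6316) held 13.9% to 23.7% of FPKM. Samples were grouped by their titles. A result of the steroid receptor list is not reported here.

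FPKM were summed by gene name, and log2(FPKM + 1) of the 11566 genes whose mean level reached 0.5 FPKM was fitted with limma 3.58.1 (R 4.3.3), 1 coefficient per diet, a variance trend and all 12 mice, over 6 comparisons. Rows were also assigned by reference transcript to part Hsd3b3 from Hsd3b2, and these sums were fitted separately in the same way. Sequences came from RefSeq (GRCm38.p6) and GENCODE M21, and were aligned with Biopython 1.88. The fit was tested on made data. Genes named are the 9 enzymes, the genes of each list that passed (up to 3 with the largest change in each direction, more where a count is broken down), relatives with a mean of at least 5 FPKM, the 3 genes most alike to each enzyme, and transcript rows with at least 10% of an enzyme. The enzymes and lists were chosen with earlier results of these data known. Alternatives were another pseudocount, filters, scaling, row choice, no trend, 2 groups alone, the mouse number as a block, a GC correction, and each mouse left out.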

Additional observations from a re-analysis of the deposited data

Results flagged for a closer look

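Transcript rows, which the comparisons of gene sums do not use, held at least 10% of an enzyme in every liver of a diet group and less in every ND liver in 2 cases. The row of ENSMUST00000090743 held 34.8% to 51.2% of Hsd3b3 in the CLE livers and at most 2.08% in the ND livers. The reference row of Hsd3b5, ENSMUST00000044094, held 23.2% to 40.6% of Hsd3b5 in the LU livers and at most 7.84% in the ND livers, with the rest in a newly assembled transcript. Its share was also high in some other livers, at 31.8%, 21.2% and 0.00129% in HFD and 4.22%, 58.6% and 27.2% in CLE. The HFD shares are of Hsd3b5 totals of only 0.600, 0.169 and 1.00 FPKM. In LU mouse 8 the row was at 0.704 of 3.03 FPKM. Neither share was tested, and the split of shared reads among rows is an estimate.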

How the results depend on the processing

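The count of relatives called in HFD against ND (7) became 4 with the transcript row of highest mean and 3 with exact reference rows. In CLE against HFD (3) it became 0 with no filter on low values, with the row of highest mean and with the GC correction, and 1 with only the 2 groups compared and with exact reference rows, and leaving out 1 mouse gave 0 to 6. In LU against HFD (1) it became 0 with the row of highest mean, with exact reference rows and with the GC correction, and leaving out 1 mouse gave 0 to 1. In CLE against ND (8) it became 5 with only the 2 groups compared and 4 with the GC correction, and leaving out 1 mouse gave 5 to 9. In LU against ND (9) it became 5 with the GC correction, and leaving out 1 mouse gave 4 to 10. Leaving out 1 mouse gave 5 to 8 in HFD against ND and 0 in CLE against LU. The ND, CLE and LU mice share some numbers but are different mice. A replicate block on the number, over 7 mice, gave 2 calls in CLE against ND (4 for the same mice without the block), 1 in LU against ND (1 without) and 0 in CLE against LU, and same-numbered livers correlated at -0.26 to 0.18. For the enzymes, 816 of 840 values moved by less than the mean SD of the 2 groups compared. That measure is wide for Hsd3b5, so the count says little about it. Its difference for LU against HFD ran from 3.20 to 5.10 with 1 mouse left out, and none of these counted as moved. With a pseudocount of 0.1, Hsd3b5 was at -6.56 for HFD against ND and 4.95 for CLE against HFD. For the Hsd3b2 name, CLE against HFD was -1.99 with the row of highest mean and -0.19 once Hsd3b3 was parted off. The GC correction and the fit of the 7 mice without the block were chosen after seeing the data. The cause of these changes was not tested. Depth is unknown, so how far low levels such as Hsd3b5 in HFD can be resolved is not set.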
